A study of Mus musculus with 8 samples.

Results

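A set of 36 genes known from monocyte-derived and lipid-associated macrophages, with general myeloid genes among them, was followed in liver RNA of mice fed a NASH diet. The genes were taken by symbol from a given list, and all 36 were found among the 16650 genes of the expression table. That list was drawn up with results of the same comparison known, so the values of the 36 genes describe these livers only. The criterion used below rests in part on a p-value, and for the 36 genes it is a description and not a test. The livers came from 4 *L2aKO* mice, in which a Cre recombinase under the albumin promoter acts on floxed *Mfsd2a* alleles in hepatocytes, and from 4 *2afl/fl* mice, which carry the same floxed alleles. Mfsd2a is a transporter of lysophosphatidylcholine, and the comparison asks how liver transcripts differ with its loss from hepatocytes. The albumin promoter is active in hepatocytes and is not one of macrophages. Both genotypes, male as stated for the animals of the study, were 8 weeks old when a high-fat diet with fructose water began, and stayed on it for 2 weeks. Livers were taken at 10 weeks of age and zeitgeber time 4 after flushing of the blood, and each mouse gave 1 whole-liver library.

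The resident macrophages of the liver are Kupffer cells, which line the sinusoids, maintain themselves largely by division and clear particles, microbes and old red cells. In a fatty, injured liver, blood monocytes enter along gradients of chemokines and complement fragments and become macrophages, which share many genes with Kupffer cells but carry more receptors of recruited myeloid cells. A lipid-associated state of these macrophages, marked by *Trem2*, *Gpnmb*, *Spp1*, *Cd9* and *Lgals3*, is known around lipid-laden and dying hepatocytes and near scars. None of the 36 genes belongs to 1 cell type alone, since most are also transcribed in Kupffer cells or neutrophils, and *Spp1*, *Cd9*, *Cd44*, *Vim* and *Tgfbi* also in bile duct, stellate or endothelial cells. In whole liver, fewer cells of a type and less RNA per cell cannot be told apart.

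Values are normalized reads, that is, reads of a gene after scaling by the size factor of its library. Libraries held 28.3 to 37.2M reads in the livers labelled *L2aKO* and 27.5 to 30.2M reads in *2afl/fl*. *Mfsd2a* itself had 915, 721, 1422 and 1974 normalized reads in the livers labelled *L2aKO* (replicates 1 to 4), against 467, 1569, 299.6 and 513 in *2afl/fl*. The targeted transcript was thus not lower under the knockout label (log2 fold change 1.01, SE 0.59, adjusted p = 0.9997 by limma, exact two-sided permutation p = 0.171 over 70 assignments, of which 0.0286 is the smallest possible). Which exons were counted is not given in the sources used here, so reads of undeleted exons may be among these values. The values say nothing of the protein, which the paper reports as absent from *L2aKO* liver lysates by immunoblot. Whether these same livers were in that immunoblot is not stated. *Mfsd2a* met the criterion described next only without *2afl/fl* replicate 2 (1.49). Since the transcript was not lower, the mice are called livers labelled *L2aKO*. Differences are log2 fold changes of the value plus 1, livers labelled *L2aKO* over *2afl/fl*, from limma across all genes. A gene met the criterion when its unadjusted p by limma was under 0.05 and its log2 fold change passed the fold limit, 0.32 here. Both thresholds are those of the study, but its p-values came from DESeq2, so its genes can differ from these. Across all genes 2.1% met it, 1.32% as higher and 0.781% as lower, and 0% had an adjusted p under 0.05, the smallest being 0.164 by limma (3.49% had an unadjusted p under 0.05).

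The 36 genes lay to the higher side in the livers labelled *L2aKO*, mostly by small amounts. Their log2 fold change was positive for 35 genes and -0.01 for *Fpr2*, with a median of 0.26 and a median SE of 0.17, against a median of 0.00 and quartiles of -0.08 and 0.10 over all genes, of which 50.1% were positive. The criterion was met by 5 of 36 genes (13.9%), *C5ar1*, *Clec4n*, *Ms4a6b*, *Cd300lb* and *Lgals3*, all higher, and the background for that is the 1.32% given above. The fold limit, whatever the p, was reached by 10 of 36 genes (27.8%), against 9.03% of all genes. All 4 livers labelled *L2aKO* lay above all 4 *2afl/fl* livers for 2 genes, *C5ar1* and *Ncf1* (5.56%), against 1.12% of all genes, and all lay below for 0 genes, against 1.13% of all genes. These shares describe how the list was made and nothing is read from them. For 8 genes the fold change was smaller than its own SE, and for 9 it was more than 2 times its SE.

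**Figure D1:**
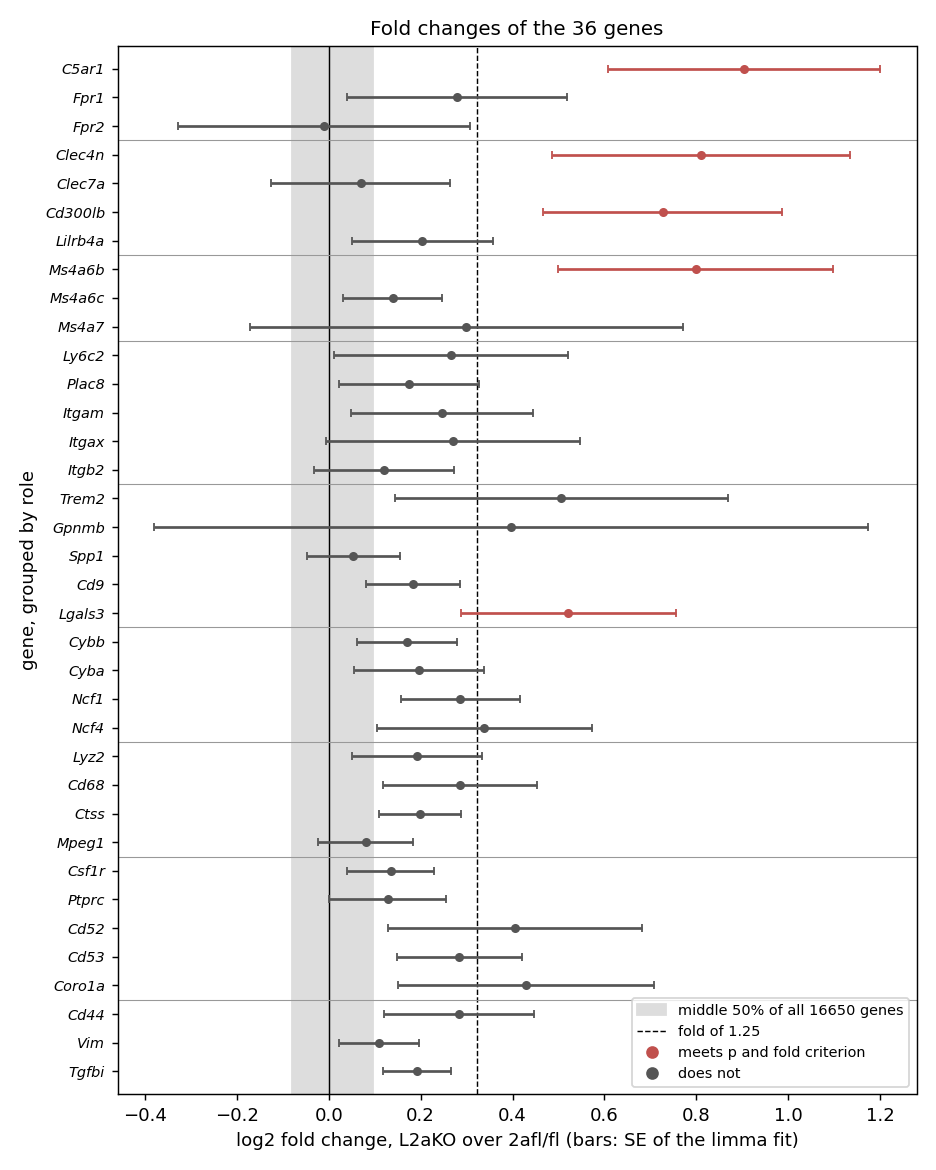
Log2 fold change of each of the 36 genes (x axis, livers labelled *L2aKO* over *2afl/fl*, bars are the SE of the limma fit, n = 4 livers each), grouped by role from top to bottom. The grey band is the middle 50% of all 16650 genes, the dashed line the fold limit (0.32), and red marks the 5 genes that met the p and fold criterion. Most points lie between 0.05 and 0.43, right of 0, and the widest bar is that of *Gpnmb*.

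The genes differed far more in level than in fold change. Per kilobase of exon the highest mean levels were those of *Mpeg1*, which encodes a pore-forming protein of phagocytes (925 normalized reads per kilobase in the livers labelled *L2aKO*, 884 in *2afl/fl*), and of *Lyz2*, the lysozyme of myeloid cells (742 in the livers labelled *L2aKO*, 642 in *2afl/fl*). Toward the other end *Ms4a7* stood at 2.76 per kilobase in the livers labelled *L2aKO* and 2.05 in *2afl/fl*, *Trem2* at 3.34 in the livers labelled *L2aKO* and 2.20 in *2afl/fl*, and *Gpnmb* at 3.73 in the livers labelled *L2aKO* and 1.495 in *2afl/fl*. The markers of the lipid-associated state did not share 1 level, since *Spp1* stood at 423 per kilobase in the livers labelled *L2aKO* and 408 in *2afl/fl*, *Cd9* at 252 in the livers labelled *L2aKO* and 222 in *2afl/fl*, and *Lgals3* at 57.7 in the livers labelled *L2aKO* and 38 in *2afl/fl*. *Trem2* and *Gpnmb* of that state, and *Ly6c2* of inflammatory monocytes, were measured on 3 to 75 reads per library. The name of the list therefore describes where its genes are known from, and no amount of such cells is given by these values. Of the 5 genes that met the criterion, 4 were among the 13 genes with a mean under 50 reads. Of the 20 genes with a mean of at least 100 reads, 0 met it, and their log2 fold changes ran from 0.05 to 0.43.

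*C5ar1*, the receptor for the complement fragment C5a that draws monocytes and neutrophils to sites of injury, had the largest fold change of the 36. Its values were 27.3, 14.7, 16.2 and 19.5 in the livers labelled *L2aKO*, against 7.45, 11.7, 11.4 and 8.63 in *2afl/fl* (means 19.4 ± 5.59 and 9.78 ± 2.08, SD, n = 4 each, log2 fold change 0.90, SE 0.30). The genotypes did not overlap, and replicate 1 of the livers labelled *L2aKO* was the highest. These values rest on 7 to 25 reads per library. At the mean of 14.7 reads over all 8 libraries counting alone gives a coefficient of variation of 26.0%. Within the livers labelled *L2aKO* it was 28.8%, and within *2afl/fl* 21.2%. The 2 groups had more and fewer reads than that mean, so these figures are given side by side only. *C5ar1* (chr7:16246743-16259540, minus strand, mm10) was the only one of the 36 that met the criterion with each of the 8 libraries left out in turn (0.74 to 1.02).

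The formyl peptide receptors, which guide phagocytes to bacterial and mitochondrial peptides, differed less than *C5ar1*. *Fpr1* had 48.0, 101.5, 70.4 and 56.7 normalized reads in the livers labelled *L2aKO* and 41.5, 51.1, 69.2 and 60.4 in *2afl/fl* (0.28, SE 0.24). *Fpr2* had 13.1, 31.1, 18.1 and 12.1 in the livers labelled *L2aKO* and 22.3, 14.9, 18.2 and 15.3 in *2afl/fl* (-0.01, SE 0.32). For both genes replicate 2 of the livers labelled *L2aKO* was the highest of all 8 and the other livers were mixed by genotype. *Fpr2* shares 31.5% of its 50-base stretches with other transcripts, mainly *Gm5966*. All 8 of its values were whole reads, and how reads with several matches were handled is not known. All 3 receptors are also carried by neutrophils, whose 10 measured markers summed to 591 to 673 in the livers labelled *L2aKO* and 593 to 665 in *2afl/fl*. Most of that sum was *Cxcr2* (means 498 in the livers labelled *L2aKO* and 501 in *2afl/fl*), so it says little of the other markers. Positive log2 fold changes were seen for 6 of the 10, while *Elane*, *Camp*, *Mmp9* and *Cxcr2* stood at -0.54, -0.39, -0.28 and -0.01. *S100a9*, named after its values were seen, averaged 4.73 in the livers labelled *L2aKO* and 2.60 in *2afl/fl* without overlap (0.70). Its values were only 1.14 to 5.71. *Csf3r* did not overlap either (0.15), and 1.12% of all genes lay likewise above in all 4 livers labelled *L2aKO*. *Retnlg*, *Mmp8* and *Ltf* were at 0 in at least 1 liver. The part of neutrophils in these values was not tested.

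Among the lectin and immunoglobulin-like receptors, *Clec4n* and *Cd300lb* were higher in the livers labelled *L2aKO* and *Clec7a* and *Lilrb4a* differed little. *Clec4n*, or dectin-2, binds fungal mannans and is typical of monocytes and inflammatory macrophages. It had 18.5, 33.6, 38.1 and 33.4 normalized reads in the livers labelled *L2aKO*, against 24.5, 12.8, 22.7 and 10.5 in *2afl/fl* (0.81, SE 0.32). Replicates 2 to 4 of the livers labelled *L2aKO* lay above every *2afl/fl* liver, and replicate 1 lay below 2 of them. *Cd300lb*, an activating receptor of myeloid cells, had 29.4, 32.8, 37.1 and 24.2 in the livers labelled *L2aKO* and 25.5, 18.1, 12.5 and 18.2 in *2afl/fl* (0.73, SE 0.26), and only replicate 4 of the livers labelled *L2aKO* fell below the highest *2afl/fl* value. With 1 library left out, *Cd300lb* missed the criterion only without *2afl/fl* replicate 3 (0.56). *Clec4n* met it in 3 of 8 such fits and missed it without replicates 2, 3 or 4 of the livers labelled *L2aKO* (0.76, 0.70 and 0.76) and without *2afl/fl* replicates 2 or 4 (0.69 and 0.61).

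*Clec7a*, or dectin-1, is the receptor for fungal β-glucans and is transcribed by many macrophages. Its values were 117.7, 115.5, 182 and 102 in the livers labelled *L2aKO* and 153, 119, 124 and 92.1 in *2afl/fl* (0.07, SE 0.19). Here replicate 3 of the livers labelled *L2aKO* alone stood above the *2afl/fl* livers, and without it the fold change was -0.11. *Lilrb4a*, an inhibitory receptor, averaged 106.7 ± 17.4 in the livers labelled *L2aKO* and 92.1 ± 11.2 in *2afl/fl* (0.20, SE 0.15). It shares 46.7% of its 50-base stretches with other transcripts, mainly *Gm49339*, and 0 of its 8 values were whole reads, so its level depends on how shared reads were divided.

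The MS4A genes encode small proteins that cross the membrane several times, and several of them sit beside immune receptors in macrophages. *Ms4a6b* had 52.3, 49.1, 42.8 and 20.4 normalized reads in the livers labelled *L2aKO*, against 26.6, 18.1, 26.1 and 18.2 in *2afl/fl* (0.80, SE 0.30). Replicates 1 to 3 of the livers labelled *L2aKO* were above every *2afl/fl* liver and replicate 4 was within their range. Its close relative *Ms4a6c* had 183, 218, 206 and 196 in the livers labelled *L2aKO* and 198, 197, 170 and 164 in *2afl/fl* (0.14, SE 0.11). *Ms4a7*, a gene of mature macrophages, was read 4 to 24 times per library, with 4.36, 9.83, 22.8 and 12.1 in the livers labelled *L2aKO* and 7.45, 14.9, 4.54 and 9.59 in *2afl/fl* (0.30, SE 0.47). For *Ms4a7* the genotypes were fully mixed, and without replicate 3 of the livers labelled *L2aKO* the fold change was -0.05. With 1 library left out, *Ms4a6b* met the criterion 4 of 8 times, and missed it without replicates 1 or 2 of the livers labelled *L2aKO* (0.66 and 0.69) and without *2afl/fl* replicates 2 or 4 (0.71 each).

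*Ms4a6b* and *Ms4a6c* lie close together on chromosome 19 and resemble each other in sequence, which matters for how their reads can be told apart. Their longest transcripts are identical at 88.3% of 1741 aligned bases, with a longest shared run of 96 bases. Per kilobase of exon *Ms4a6c* had 98.0 normalized reads in the livers labelled *L2aKO* and 89.0 in *2afl/fl*, and *Ms4a6b* 9.18 in the livers labelled *L2aKO* and 4.96 in *2afl/fl*. Of the 50-base stretches of *Ms4a6c*, 10.5% occur in other transcripts, chiefly *Ms4a6b*, and 0 of its 8 values were whole reads, against 3.57% and all 8 values for *Ms4a6b*. The 250 bases before the annotated start of each gene (RefSeq, GRCm38.p6, plus strand) are shown because the pair keeps this likeness upstream while the values of the genes differ. Over 173 aligned bases 88.4% were identical. Capitals mark the longest shared run, of 48 bases, which lies farther from the start in *Ms4a6b* (chr19:11518309-11518558) than in *Ms4a6c* (chr19:11469118-11469367).
Ms4a6b: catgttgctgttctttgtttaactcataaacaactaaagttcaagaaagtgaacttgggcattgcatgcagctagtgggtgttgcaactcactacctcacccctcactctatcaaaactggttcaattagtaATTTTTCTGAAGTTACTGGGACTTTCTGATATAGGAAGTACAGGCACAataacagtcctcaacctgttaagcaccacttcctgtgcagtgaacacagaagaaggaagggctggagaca
Ms4a6c: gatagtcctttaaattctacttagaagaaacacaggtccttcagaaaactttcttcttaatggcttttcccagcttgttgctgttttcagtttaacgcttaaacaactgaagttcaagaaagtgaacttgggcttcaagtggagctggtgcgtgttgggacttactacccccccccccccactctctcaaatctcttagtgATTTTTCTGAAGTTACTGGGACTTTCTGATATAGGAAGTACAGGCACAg

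Monocyte genes and integrins had small fold changes, from 0.12 to 0.27, and 0 of 5 met the criterion. *Ly6c2*, which marks inflammatory monocytes in mice, had 29.4, 17.7, 17.1 and 19.5 normalized reads in the livers labelled *L2aKO* and 16.3, 14.9, 18.2 and 18.2 in *2afl/fl* (0.27, SE 0.25). Replicate 1 of the livers labelled *L2aKO* was well above the rest, and without it the fold change was 0.10. *Plac8*, a small protein of monocytes and granulocytes, averaged 91.8 ± 5.64 in the livers labelled *L2aKO* and 82.0 ± 13.9 in *2afl/fl* (0.17, SE 0.15). The integrin chains were no different in this respect. *Itgam*, the αM chain of recruited myeloid cells, had 39.2, 41.8, 49.5 and 42.7 in the livers labelled *L2aKO* and 42.5, 42.6, 34.1 and 27.8 in *2afl/fl* (0.25, SE 0.20). *Itgax*, the αX chain of dendritic cells and inflammatory macrophages, had 35.97, 20.5, 47.6 and 30.7 in the livers labelled *L2aKO* and 31.9, 22.4, 32.9 and 21.1 in *2afl/fl* (0.27, SE 0.28). *Itgb2*, the β chain that pairs with both, gave the smallest fold change of the group (0.12, SE 0.15). For each of the 3 integrin genes, 2 livers labelled *L2aKO* lay above all *2afl/fl* livers, and the remaining livers overlapped. *Itgam* shares 66.3% of its 50-base stretches with *Gm49368* and other transcripts, and *Ly6c2* shares 14.4%, mainly with *Ly6c1*, which endothelial cells transcribe.

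The lipid-associated macrophage genes split by level. *Lgals3*, or galectin-3, a sugar-binding protein secreted by macrophages, had 83.9, 76.2, 175 and 93.8 normalized reads in the livers labelled *L2aKO*, against 73.4, 59.6, 79.5 and 70 in *2afl/fl* (0.52, SE 0.23). Replicate 3 of the livers labelled *L2aKO* stood far above all others, the other 3 lay just above or within the *2afl/fl* range, and without replicate 3 the fold change was 0.26 and the criterion was not met. *Lgals3* also missed it without replicate 4 of the livers labelled *L2aKO* (0.56) and without *2afl/fl* replicates 1, 2 or 4 (0.54, 0.44 and 0.52). *Trem2*, a lipid-sensing receptor, had 19.6, 10.6, 25.7 and 10.2 in the livers labelled *L2aKO* and 7.45, 12.8, 14.8 and 8.63 in *2afl/fl* (0.51, SE 0.36). Replicates 1 and 3 of the livers labelled *L2aKO* were above all *2afl/fl* livers and replicates 2 and 4 were among them. *Gpnmb*, a glycoprotein of lysosome-rich macrophages, had 13.1, 2.46, 71.4 and 10.2 in the livers labelled *L2aKO* and 8.51, 10.6, 10.2 and 9.59 in *2afl/fl* (0.40, SE 0.78). Its fold change came from 1 liver, since it was -0.39 without replicate 3 of the livers labelled *L2aKO*.

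The 2 genes of the group with the most reads differed little. *Spp1*, or osteopontin, a secreted protein of lipid-associated macrophages and of bile duct cells, had 625, 646, 759 and 756 normalized reads in the livers labelled *L2aKO* and 799, 637, 583 and 673 in *2afl/fl* (0.05, SE 0.10). The genotypes overlapped throughout and the highest liver was *2afl/fl* replicate 1. The 6 measured bile duct markers summed to 157 to 394 in the livers labelled *L2aKO* and 258 to 437 in *2afl/fl*, with *Cldn4* at 0 in at least 1 liver. Most of that sum was *Sox9* (means 214 in the livers labelled *L2aKO* and 279 in *2afl/fl*), so it says little of the other markers. The part of bile duct cells in the level of *Spp1* was not tested. *Cd9*, a tetraspanin of many cells, had 508, 549, 573 and 432 in the livers labelled *L2aKO* and 446, 498, 395 and 474 in *2afl/fl* (0.18, SE 0.10), with replicates 1 to 3 of the livers labelled *L2aKO* above every *2afl/fl* liver.

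**Figure D2:**
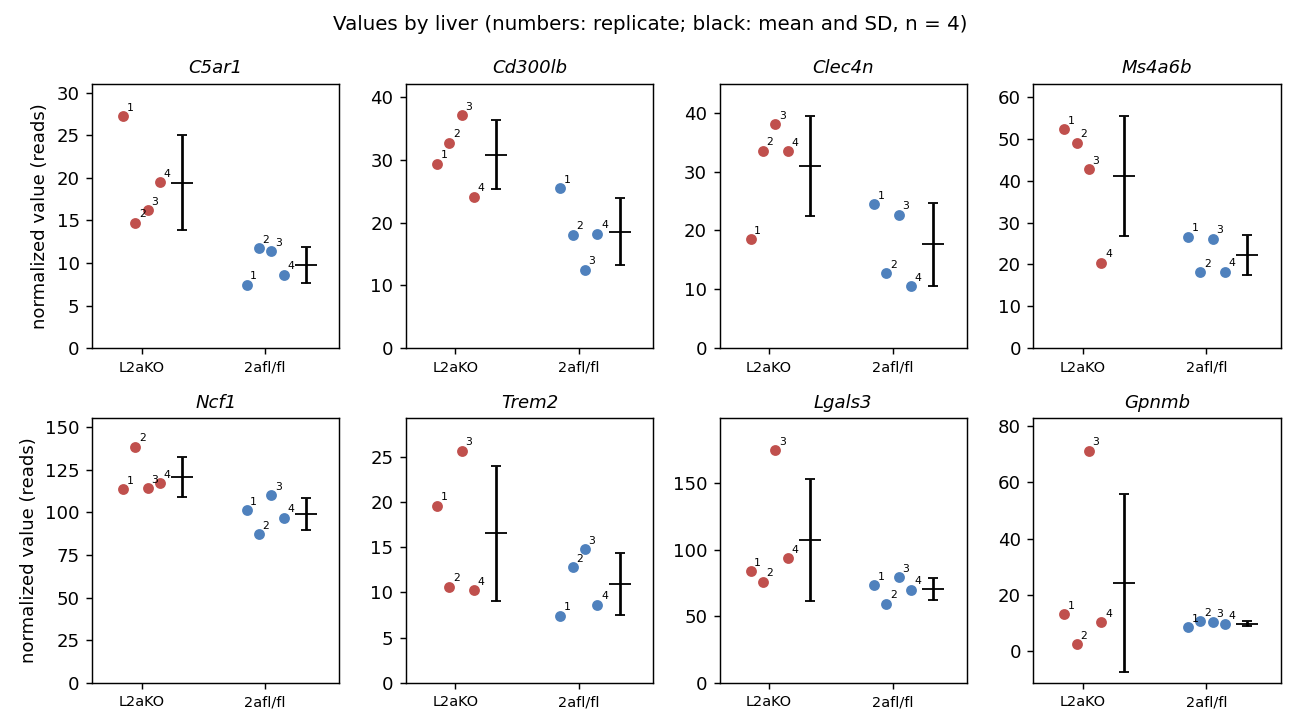
Normalized reads of 8 of the 36 genes in each liver (y axis, linear, 1 panel per gene, livers labelled *L2aKO* in red left of *2afl/fl* in blue, numbers are replicates). Black bars are the mean and SD of 4 livers. *C5ar1* and *Ncf1* do not overlap between genotypes. Replicate 3 of the livers labelled *L2aKO* is highest for *Lgals3* and *Gpnmb*, at 175 and 71.4. Without that liver the log2 fold change is 0.26 for *Lgals3* and -0.39 for *Gpnmb*.

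The 4 NADPH oxidase genes, whose products make the superoxide of phagocytes, were higher by 0.17 to 0.34 on the log2 scale, and 0 of 4 met the criterion. *Ncf1*, the organizing subunit in the cytosol, had 113, 138, 114 and 117 normalized reads in the livers labelled *L2aKO*, against 101, 87.3, 110.1 and 96.8 in *2afl/fl* (0.29, SE 0.13). The genotypes did not overlap, but the gap between the lowest liver labelled *L2aKO* and the highest *2afl/fl* liver was small, and the fold limit was not reached. *Ncf4*, another cytosolic subunit, averaged 28.7 ± 6.58 in the livers labelled *L2aKO* and 22.2 ± 2.66 in *2afl/fl* (0.34, SE 0.23). *Cybb*, the catalytic membrane subunit, averaged 626 ± 88.2 in the livers labelled *L2aKO* and 554 ± 62.6 in *2afl/fl* (0.17, SE 0.11). *Cyba*, its membrane partner, averaged 108.7 ± 11.4 in the livers labelled *L2aKO* and 94.9 ± 11.5 in *2afl/fl* (0.20, SE 0.14). For these 3 subunits, 2 livers labelled *L2aKO* lay above all *2afl/fl* livers, each time replicates 2 and 3.

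Genes of the lysosome and of the killing of microbes had log2 fold changes from 0.08 to 0.29, and 0 of 4 met the criterion. *Mpeg1* had 4065, 4075, 3787 and 4103 normalized reads in the livers labelled *L2aKO* and 4692, 3496, 3961 and 3172 in *2afl/fl* (0.08, SE 0.10). The *2afl/fl* livers spanned the whole range of the livers labelled *L2aKO*. *Lyz2* had 863, 1270, 974 and 797 in the livers labelled *L2aKO* and 969, 794, 742 and 875 in *2afl/fl* (0.19, SE 0.14), and shares 15.4% of its 50-base stretches with other transcripts, mainly *Lyz1*. *Ctss* had 681, 717, 704 and 621 in the livers labelled *L2aKO* and 633, 524, 679 and 547 in *2afl/fl* (0.20, SE 0.09), so that 3 livers labelled *L2aKO* lay above every *2afl/fl* liver. *Cd68*, a lysosomal membrane protein used as a macrophage stain, had 116.6, 119.6, 158 and 122 in the livers labelled *L2aKO* and 121, 103, 124 and 77.7 in *2afl/fl* (0.29, SE 0.17), with only replicate 3 above the *2afl/fl* livers. Kupffer cells transcribe all 4, and their 13 markers, of which 0 were at 0 in any liver, summed to 16897 to 19580 in the livers labelled *L2aKO* and 15122 to 18140 in *2afl/fl*. The largest part of that sum was *Slc40a1* (means 6424 in the livers labelled *L2aKO* and 5582 in *2afl/fl*). The part of Kupffer cells in these values was not tested.

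The receptor for the macrophage growth factor CSF1 and the pan-leukocyte genes had fold changes from 0.13 to 0.43. *Csf1r* had 1607, 2047, 1851 and 1716 normalized reads in the livers labelled *L2aKO* and 1740, 1569, 1866 and 1412 in *2afl/fl* (0.13, SE 0.10). *Ptprc*, the CD45 phosphatase of all leukocytes, averaged 460.0 ± 85.7 in the livers labelled *L2aKO* and 417 ± 43.1 in *2afl/fl* (0.13, SE 0.13). *Cd53*, a tetraspanin of leukocytes, had 195, 257, 234 and 189 in the livers labelled *L2aKO* and 203, 168, 197 and 149 in *2afl/fl* (0.28, SE 0.14). In all 3, replicate 2 of the livers labelled *L2aKO* was the highest liver. *Cd52*, a short surface glycoprotein of lymphocytes and monocytes, had 24.0, 49.9, 44.7 and 29.7 in the livers labelled *L2aKO* and 36.2, 26.6, 19.3 and 26.8 in *2afl/fl* (0.41, SE 0.28). *Coro1a*, an actin regulator of leukocytes, had 181, 190.0, 109.4 and 164 in the livers labelled *L2aKO* and 107.4, 77.7, 113.5 and 197 in *2afl/fl* (0.43, SE 0.28). For *Coro1a* replicate 3 was lowest among the livers labelled *L2aKO*, as it was for *Mpeg1* and *Ly6c2*, and *2afl/fl* replicate 4 was highest of all. *Cd53* met the criterion without replicates 1 or 4 of the livers labelled *L2aKO* (0.33 and 0.35) and without *2afl/fl* replicates 1 or 3 (0.35 and 0.33), although not with all 8 libraries.

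Lymphocytes also transcribe *Ptprc*, *Cd52*, *Cd53* and *Coro1a*. The 6 B cell markers summed to 118 to 163 in the livers labelled *L2aKO* and 86.2 to 129 in *2afl/fl*, and 6 of 6 had positive log2 fold changes. The 9 measured T and NK cell markers summed to 122 to 198 in the livers labelled *L2aKO* and 123 to 180 in *2afl/fl*, with *Ncr1* at 0 in at least 1 liver and 4 of 9 positive. The part of lymphocytes in the pan-leukocyte values was not tested.

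Of the adhesion, matrix and cytoskeleton genes, 0 of 3 met the criterion. *Cd44*, the hyaluronan receptor of activated leukocytes, had 428, 559, 412 and 324 normalized reads in the livers labelled *L2aKO* and 390, 294, 404 and 315 in *2afl/fl* (0.28, SE 0.16). *Tgfbi*, a matrix protein secreted by macrophages, had 1266, 1138, 1281 and 1085 in the livers labelled *L2aKO* and 1109, 943, 1076 and 1044 in *2afl/fl* (0.19, SE 0.07). *Vim*, the intermediate filament of leukocytes and mesenchymal cells, averaged 525 ± 53.4 in the livers labelled *L2aKO* and 486 ± 36.6 in *2afl/fl* (0.11, SE 0.09). In *Cd44* and *Tgfbi* 3 livers labelled *L2aKO* lay above every *2afl/fl* liver. The 9 stellate cell markers, none of them at 0 in any liver, summed to 12034 to 14199 in the livers labelled *L2aKO* and 11882 to 14585 in *2afl/fl*. The largest part of that sum was *Reln* (means 5091 in the livers labelled *L2aKO* and 5177 in *2afl/fl*). Of the 9 markers, 7 were positive and *Col1a1* met the criterion (0.37), against 1.32% of all genes as higher. The part of stellate cells in these values was not tested.

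The promoters of the list were searched for motifs of factors known to act in macrophages. Of the 36 genes, 30 were matched to a promoter of the RefSeq table, and 250 bases before the start were read on both strands. *Csf1r*, *Clec4n*, *Ncf4*, *Itgb2*, *Cd52* and *Lilrb4a* were not searched. The motif of PU.1, the factor that sets up myeloid identity, was taken as GAGGAAGT or its reverse ACTTCCTC and occurred before 2 of 30 genes, *Spp1* and *Ly6c2*, against 2.79% of 27025 genes. The AP-1 motif TGAGTCA (reverse TGACTCA) occurred before 2 of 30, *Cd68* and *Itgax*, against 5.16% of all genes. The E-box CACGTG, its own reverse and bound by factors of lysosomal genes, occurred before 0 of 30, against 6.86% of all genes. A match is a description of letters only. The windows are shown, GRCm38.p6, with the motif in capitals, because they are the only ones found by these searches in *Spp1* (chr5:104434978-104435025, plus strand), *Itgax* (chr7:128129474-128129520, plus strand) and, of 2 in each gene, the ones farther from the start in *Ly6c2* (chr15:75112052-75112099, minus strand) and *Cd68* (chr11:69666293-69666339, minus strand). The genes with a match overlapped between genotypes, as did all of the 36 but *C5ar1* and *Ncf1*, so nothing is read from it.
Spp1: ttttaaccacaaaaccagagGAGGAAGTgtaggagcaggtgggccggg
Ly6c2: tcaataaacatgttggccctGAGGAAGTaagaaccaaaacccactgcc
Itgax: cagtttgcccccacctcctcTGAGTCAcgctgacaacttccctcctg
Cd68: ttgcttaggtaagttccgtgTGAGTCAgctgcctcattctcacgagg

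The livers contributed unequally to the picture. Of the 36 genes, 17 were highest in replicate 3 of the livers labelled *L2aKO*, 12 in replicate 2, 4 in replicate 1 and 0 in replicate 4, while 2 were highest in *2afl/fl* replicate 1 and 1 in *2afl/fl* replicate 4. The lowest of the 8 values was in *2afl/fl* replicate 2 for 12 genes and in *2afl/fl* replicate 4 for 10. The median log2 distance of the 36 genes from the *2afl/fl* mean was 0.15, 0.29, 0.36 and 0.07 in replicates 1 to 4 of the livers labelled *L2aKO*, and 0.15, -0.10, 0.10 and -0.09 in replicates 1 to 4 of *2afl/fl*. By this measure *2afl/fl* replicate 1 lay with replicate 1 of the livers labelled *L2aKO*, and replicate 4 of the livers labelled *L2aKO* lay below *2afl/fl* replicates 1 and 3. The median fold change of the list was 0.17 without replicate 3 of the livers labelled *L2aKO*, and 0.19 without replicate 2. It was 0.21 without *2afl/fl* replicate 2 and 0.20 without *2afl/fl* replicate 4. The number of genes that met the criterion fell to 3 without replicate 2 or without replicate 3 of the livers labelled *L2aKO*, to 2 without *2afl/fl* replicate 2 and to 3 without *2afl/fl* replicate 4.

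**Figure D3:**
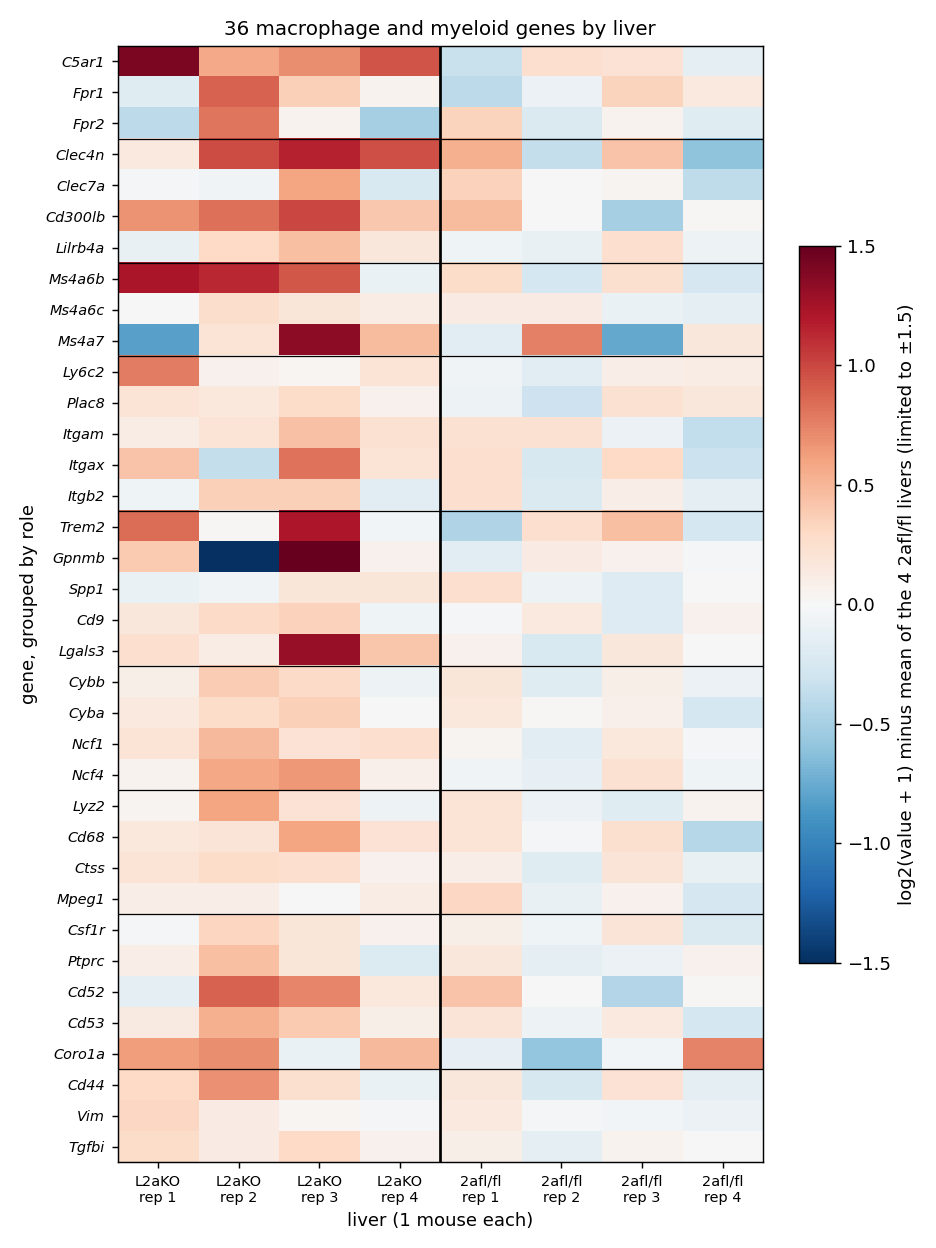
Log2 of the value plus 1 of each of the 36 genes in each liver, minus the mean of the 4 *2afl/fl* livers (color, limited to ±1.5), with genes in rows by role and the livers labelled *L2aKO* left of the black line. Replicates 2 and 3 of the livers labelled *L2aKO* hold the highest value of 12 and 17 genes, and replicate 4 of 0 genes.

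Variation of the 36 genes within each genotype was also described. After the mean of each genotype was taken off, the first principal component held 37.8% of the variance of the 36 genes, and 21.9% of that of 14118 genes of at least the same lowest mean. A first component of few genes takes a larger share, so the 2 figures are given side by side only. On it replicates 2 and 3 of the livers labelled *L2aKO* (0.41 and 0.38) and *2afl/fl* replicates 1 and 3 (0.41 and 0.17) were on one side. Replicates 1 and 4 of the livers labelled *L2aKO* (-0.35 and -0.44) and *2afl/fl* replicates 2 and 4 (-0.23 and -0.35) were on the other. Since the mean of each genotype was taken off, livers on both sides were bound to occur in each.

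Related genes outside the 36 were counted in lists written from general knowledge, with earlier results of these livers known. Of 18 other monocyte genes, *Ccr2* and *Cx3cr1* among them, 0 met the criterion in either direction and 14 were positive, with a median log2 fold change of 0.22. Its genes of highest mean value, *Hp*, *Gda* and *Nr4a1*, the first of which is chiefly a hepatocyte gene, stood at -0.06, 0.03 and -0.65. Of 18 other lipid-associated macrophage genes, 0 met it, 15 were positive and the median was 0.10. With a pseudocount of 5 or with equal column totals, 1 of them met it as higher. *Apoe*, *Ctsb* and *Plin2*, those of highest mean value and all also transcribed by hepatocytes, had log2 fold changes of 0.07, 0.10 and -0.16. The 4 other NADPH oxidase genes were all positive with a median of 0.06, and 0 of them met the criterion. *Rac1* and *Rac2*, small GTPases that take part in turning the oxidase on, had log2 fold changes of 0.01 and 0.12. Of 8 other integrin and CSF1 axis genes 5 were positive (median 0.03), with *Itgb1*, *Itgal* and the ligand *Csf1* at -0.01, 0.24 and 0.21. All 4 livers labelled *L2aKO* lay above all 4 *2afl/fl* livers for *Csf1*, and in the lipid-associated list for *Ctsb*, against 1.12% of all genes. Neither gene met the criterion.

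The receptor Trem2 signals through the adaptor Tyrobp and the kinase Syk. Of 8 genes of this pathway 6 were positive and 1, *Syk*, met the criterion. *Syk* had 249.6, 278, 273 and 232 normalized reads in the livers labelled *L2aKO* and 245, 166, 193 and 196 in *2afl/fl* (0.38, SE 0.12, unadjusted p = 0.0089 and adjusted p = 0.9997 by limma), and *2afl/fl* replicate 1 lay within the range of the livers labelled *L2aKO*. Of 7 other MS4A genes all were positive (median 0.17) and *Ms4a1*, the CD20 gene of B cells, met the criterion (0.88, SE 0.38, adjusted p = 0.9997 by limma). Of 21 other pan-macrophage genes 19 were positive with a median of 0.09, and *Tlr2*, a receptor for bacterial lipoproteins, met it (0.66, SE 0.18, adjusted p = 0.9997 by limma).

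Marker lists of the other cells of the liver gave the following background. Of the 13 Kupffer cell markers, 12 were positive and 0 met the criterion, with a median of 0.17, and *Slc40a1*, *Cd5l* and *Clec4f* stood at 0.21, 0.27 and 0.03. The median was 0.17 for neutrophil markers (6 of 10 positive, with *Cxcr2*, *Csf3r* and *Mmp9* at -0.01, 0.15 and -0.28), 0.05 for dendritic cell markers (6 of 9, *Batf3* met the criterion at 1.81), and 0.54 for B cell markers, where *Ms4a1* again met it. It was -0.01 for T and NK cell markers, with *Cd4*, *Cd8a* and *Cd3e* at -0.16, 0.41 and 0.59. Among cells that are not leukocytes it was 0.09 for hepatocytes (6 of 7 positive, *Alb*, *Cps1* and *Ttr* at 0.23, 0.09 and 0.07), 0.06 for sinusoidal endothelium (6 of 7, *Stab2*, *Kdr* and *Fcgr2b* at 0.17, 0.11 and 0.06) and 0.11 for stellate cells (7 of 9, *Col1a1* met it at 0.37). It was 0.25 for bile duct cells (4 of 6, *Sox9*, *Krt19* and *Epcam* at -0.43, 0.18 and 0.74), 0.58 for mesothelium (5 of 5, *Msln*, *Upk3b* and *Lrrn4* at 0.75, 0.58 and 0.80) and 0.53 for red blood cells, where *Hba-a1*, *Hba-a2* and *Hbb-bs* met it at 0.59, 0.47 and 0.53. Each of the genes that met the criterion here had an adjusted p of 0.9997 by limma.

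**Figure D4:**
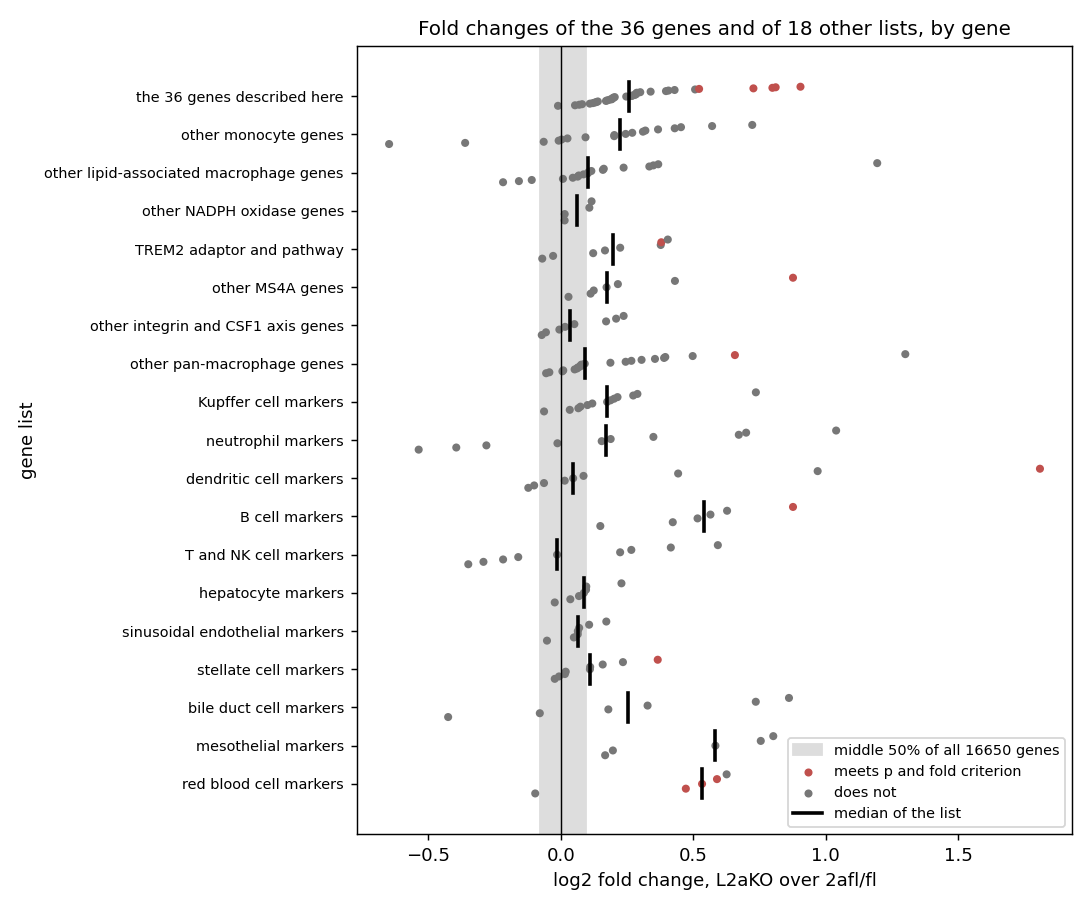
Log2 fold change of each gene (points, livers labelled *L2aKO* over *2afl/fl*) in the 36 genes and in 18 other lists, with the median of each list as a black bar and genes that met the criterion in red. The grey band is the middle 50% of all 16650 genes. The median of the 36 genes, 0.26, lies above those of other monocyte genes (0.22) and Kupffer cell markers (0.17) and below those of the B cell, mesothelial and red blood cell lists.

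The mesothelial markers, of the cells that cover the liver, varied by liver, with a sum of 287 in replicate 1 of the livers labelled *L2aKO* and 63.7 to 101.5 in replicates 2 to 4, against 37.5 to 135 in *2afl/fl*. *C5ar1*, *Ms4a6b*, *Ly6c2* and *Vim* were highest in that same liver, and the part of the capsule in their values was not tested. Without it the log2 fold changes of *C5ar1*, *Ms4a6b*, *Ly6c2* and *Vim* were 0.74, 0.66, 0.10 and 0.04, and *Ms4a6b* did not meet the criterion.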

How the data were processed

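Whole-liver RNA of 4 *L2aKO* and 4 *2afl/fl* mice was sequenced, 1 library per mouse. According to the labels and the methods of the study, reads were analyzed by the authors in Partek Flow version 10, with mapping to mm10 by STAR 2.7.8a and DESeq2 for normalization. The deposited values are a signal, the reads of a gene after scaling by the size factor of its library. The gene annotation, the handling of reads with several matches and strand were not given in the sources used here. Of the 288 values of the 36 genes, 258 were within 0.02 of whole reads and the others were fractions of a read, so count tests were not used. The number of columns of other samples was 0, and no column of the authors' own comparisons was used.

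Columns were assigned to genotypes by their labels. All 16650 genes had a mean value of at least 1 and entered the fit with limma 3.58.1 in R 4.3.3 (lmFit, robust eBayes with a trend), two-sided and without covariates, on log2 values after a pseudocount of 1 was added. The pseudocount tends to make fold changes of low genes smaller, but not of all. From a pseudocount of 0.5 to 1 of 5, the log2 fold change of *Gpnmb* went from 0.38 to 0.43. Adjusted p-values are Benjamini-Hochberg over all genes. The criterion, unadjusted p under 0.05 and a log2 fold change past the fold limit (0.32), is that of the study. P-values by limma set the genotype difference against the spread between livers of a genotype, moderated over all genes. *Mfsd2a* was also tested by exact permutation over 70 assignments. The fit was checked on simulated data.

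The 36 genes and all other lists were chosen with earlier results of these data known. All 36 genes are named, and of each other list the genes that met the criterion, or otherwise up to 3 of highest mean value. An item that this rule would name is not reported here. Exon lengths and shared 50-base stretches came from GENCODE M21 transcripts, of 36 of 36 genes. The coordinates of 25 of the 36 matched those of RefSeq. Promoters came from the RefSeq table for GRCm38.p6. Read numbers per library were taken from the spacing of small values (88.6 to 89.2% of values under 100 reads were whole). Other settings of the pseudocount, filter, scaling, eBayes, library weights, replicate block and fold limit were tried, and each library was left out in turn.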

Additional observations from a re-analysis of the deposited data

Results flagged for a closer look

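Among the 72 groups of 4 livers formed by the 36 genes and the 2 genotypes, 5 held a liver far from the other 3 by Dixon's test (gap over range above its critical value), where chance marks about 1 in 20 groups. *Gpnmb* was 71.4 in replicate 3 of the livers labelled *L2aKO*, with the next liver at 13.1. *Cd68* was 158 in the same liver, with the next at 122, and *Mpeg1* was lowest there at 3787, with the next at 4065. *Ncf1* was 138 in replicate 2 of the livers labelled *L2aKO*, with the next at 117. *Lilrb4a* was 109 in *2afl/fl* replicate 3, with the next at 87.7. Replicates 2 and 3 of the livers labelled *L2aKO* thus gave 4 of the 5.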

How the results depend on the processing

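Limits come from reads per gene and from 4 livers each. Of the 36 genes, 13 had a mean under 50 reads, and 4 of the 5 that met the criterion were among these. With each library left out in turn the number of the 36 that met it ran from 2 to 6, and the number with a positive fold change from 32 to 36. With no fold limit 8 of the 36 met it, *Ncf1*, *Ctss* and *Tgfbi* being added. *Lgals3* missed it with quantile normalization (0.50), with library weights (0.50) and without the trend and robust settings (0.52), where the other 4 still met it. Left-out libraries also gave the criterion to *Ncf1* (0.34 without *2afl/fl* replicate 3), *Coro1a* (0.68 without *2afl/fl* replicate 4) and *Cd44* (0.41 without replicate 4 of the livers labelled *L2aKO*). The sign changed for *Fpr2* with a pseudocount of 5 (0.00143). With a library left out it changed for 6 genes, whose log2 fold changes ran from -0.28 to 0.15 for *Fpr2*, from -0.11 to 0.19 for *Clec7a*, from -0.047 to 0.67 for *Ms4a7*, from -0.39 to 1.07 for *Gpnmb*, from -0.012 to 0.14 for *Spp1* and from -0.0052 to 0.18 for *Mpeg1*. Of the other values of the 36 genes, 389 under other settings and 256 with a library left out kept their direction and their side of the criterion.

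Over all genes 219 were higher and 130 lower. The lower count was 80 with a mean value of at least 10, where fewer genes were tested, and 253 with no fold limit. With a library left out the higher count ran from 193 to 262 and the lower from 84 to 191. Quantile normalization gave 167 higher and 169 lower. The log2 fold change of *Mfsd2a* ran from 0.69 to 1.49 with a library left out. The number of genes with an adjusted p under 0.05 was 0 in every setting tried but one, 2 without *2afl/fl* replicate 2 by limma. The labels do not say whether the replicate numbers pair the samples. Residuals of same-numbered livers correlated at -0.003, -0.12, 0.003 and 0.06, which cannot decide it with 4 livers per genotype. With a replicate block 210 genes were higher, 149 lower and 5 of the 36 met the criterion. The cause of these changes was not tested.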

Other observations

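Replicate 3 of the livers labelled *L2aKO*, the highest liver for 17 of the 36 genes, also held several transcripts that the other 7 livers nearly lacked. In a tally made after the values had been seen, genes were counted whose value was at least 20 in 1 liver and, after adding 1, at least 3 times that of the next highest liver. The counts were 3, 2, 6 and 4 in replicates 1 to 4 of the livers labelled *L2aKO* and 1, 1, 5 and 0 in replicates 1 to 4 of *2afl/fl*. The 6 genes of replicate 3 included *Gpnmb* (71.4, others 2.46 to 13.1) and *Mmp12*, the macrophage elastase, which stood at 101.8 against 0.819 to 7.45 in the other livers. *Slc7a11*, the cystine transporter of cells under oxidative stress, stood at 99.0 (others 0 to 6.38) and *Sprr1a*, a small proline-rich protein induced by injury, at 48.5 (others 0 to 0.959). *Ly6d* stood at 147 (others 3.84 to 25.1) and *Elovl7*, a fatty acid elongase, at 69.5 (others 11.4 to 22.1). *Marco*, a scavenger receptor of Kupffer cells, was 1 of the 2 genes of this kind in replicate 2 of the livers labelled *L2aKO* (377, others 42.6 to 102.7). These genes were named after their values were seen, and none of them is a comparison between genotypes.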
